A study of Rattus norvegicus with 3 samples.

Results

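The WNT ligands, receptors, antagonists and effectors on a rat whole-genome array were examined in induced pluripotent stem (iPS) cells of the rat line M13 and in adult rat cells. Members were the probes whose array gene name belongs to the Wnt, Fzd, Sfrp, Dkk, Axin, Dvl, Rspo or Wisp families or is Frzb, Lrp5, Lrp6, Lef1, Tcf7, Tcf7l1, Tcf7l2, Wif1, Porcn or Apc. This rule, which uses names and no measured values, found 62 probes for 47 genes among 35497 genes on the array. The 3 samples of untreated M13 cells, grown on irradiated mouse embryonic fibroblast feeders in serum-containing medium, were labelled with Cy3. Each was hybridised on its own array against 1 Cy5-labelled RNA, mix1, whose label's growth notes name 2 cultured adult rat cell types, bone marrow cells (BMC) and primary ear fibroblasts (PEF). M13 is 1 line and mix1 was counted as 1 RNA. The labels call the 3 M13 samples repeats without naming separate cultures, so the p-values reflect spread among these 3 arrays and that spread may be technical.

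WNT proteins are secreted, lipid-modified ligands that bind Frizzled receptors together with the coreceptors LRP5 and LRP6. In the canonical branch this halts the Axin, APC and GSK3 complex that destroys beta-catenin, which then joins LEF1 and the TCF factors at target genes. WNT5A-type ligands act mostly through calcium and cell polarity signals instead. In rodent pluripotent cells the canonical branch favours self-renewal, while in fibroblasts and marrow stroma WNT signals bear on matrix production and bone formation.

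The summed signal of fibroblast, blood and marrow markers was lower in M13 than in mix1, though not every marker was. Of the 12 fibroblast markers, 10 were well above background on all 3 arrays in M13, where Thy1 and Postn were so on no array, and all 12 were so in mix1. Their summed normalized signal was 18589 to 21987 in M13 and 2494931 to 2825274 in mix1. The 7 pluripotency markers with a probe summed to 24230 to 25441 in M13 and 2214 to 2404 in mix1, and 6 of 7 were above background on all arrays in M13 and 4 of 7 in mix1. Dnmt3b and Epcam made up most of the M13 sum, and Lin28a had a log2 ratio of -0.15. Macrophage and blood markers summed to 2692 to 2817 in M13 and 191283 to 204461 in mix1, marrow stromal markers to 3933 to 4547 in M13 and 218700 to 238330 in mix1, and keratinocyte markers to 620 to 652 in M13 and 1185 to 1289 in mix1. Of the 8 macrophage and blood markers, Cd68, Cd14, Csf1r and Lyz2 were well above background in M13 on all 3 arrays and Ptprc, Itgam, Cd74 and Adgre1 on none. Among the stromal markers Lepr was at 0.50, Bglap at -0.26 and Runx2 at -0.56, and the keratinocyte difference lay in Tp63 (-2.69), with Krt5 at 0.27 and Krt14 at 0.13. The part of these differences, and of feeder RNA, in the WNT values was not tested. Fewer cells of a type and less RNA per cell cannot be told apart in such bulk RNA.

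The promoters of 3 members are shown because Axin2, Dkk1 and Lef1 are textbook feedback or effector genes of the canonical branch with unlike ratios here. Axin2 was lower in M13 than in mix1 and Lef1 higher, while the arrays disagreed in sign for Dkk1. Each line gives 250 bases before and 50 from the transcription start in RefSeq on build GRCr8, with matches to the TCF/LEF core in capitals.
Axin2 (chr10:94398535-94398834, plus strand): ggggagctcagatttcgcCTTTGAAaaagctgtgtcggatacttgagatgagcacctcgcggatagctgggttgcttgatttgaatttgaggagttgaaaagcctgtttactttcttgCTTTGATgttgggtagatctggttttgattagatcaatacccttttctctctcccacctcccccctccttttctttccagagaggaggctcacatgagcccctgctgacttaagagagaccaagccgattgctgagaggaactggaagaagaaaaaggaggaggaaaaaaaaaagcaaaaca
Dkk1 (chr1:237798601-237798900, minus strand): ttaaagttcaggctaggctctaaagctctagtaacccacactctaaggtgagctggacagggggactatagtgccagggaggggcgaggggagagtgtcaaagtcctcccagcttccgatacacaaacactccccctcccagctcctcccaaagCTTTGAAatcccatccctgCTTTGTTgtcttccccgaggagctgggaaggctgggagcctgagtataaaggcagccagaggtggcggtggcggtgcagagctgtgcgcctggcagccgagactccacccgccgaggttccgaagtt
Lef1 (chr2:222340463-222340762, plus strand): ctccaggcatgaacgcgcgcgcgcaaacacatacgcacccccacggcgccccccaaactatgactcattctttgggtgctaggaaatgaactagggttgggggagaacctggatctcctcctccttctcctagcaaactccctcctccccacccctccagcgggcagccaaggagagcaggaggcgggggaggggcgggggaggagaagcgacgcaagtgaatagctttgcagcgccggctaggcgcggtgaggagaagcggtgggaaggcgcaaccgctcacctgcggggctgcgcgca
The 4 cores searched, 7 bases each and on both strands, were CTTTGAA, then the version CTTTGAT, then the version CTTTGTA, and then the version CTTTGTT. The Axin2 window held CTTTGAA from 232 and CTTTGAT from 132 bases before the start, and the Dkk1 window CTTTGAA from 96 and CTTTGTT from 77 bases before it. The Lef1 window held none of these letters. A match was present in 7 of the 32 member promoters in the table (21.9%) and in 17.1% of all 33469 promoters of this length. The other members with a match were Sfrp5, Wnt3, Wnt8a, Tcf7 and Fzd7. A match describes the sequence and does not show that a factor binds there.

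Of the 47 members, 15 were called lower in M13 than in mix1, 4 higher, 9 neither, and 19 could not be measured, since neither RNA cleared the background on every array. The unmeasured share was 40.4% of members and 42.7% of all 35497 genes. A call needed a limma Benjamini-Hochberg adjusted p under 0.05 over all 20343 genes tested and at least a 2-fold difference. Of all genes tested, 25.4% were called lower and 18.8% higher, and 44.2% either way. The median log2 ratio of M13 over mix1 was -1.47 over the 28 measured members and -0.02 over all genes tested. Of those 28, 8 passed the background filter through 1 RNA, which favours large ratios, so the count was also taken over genes well above background in both RNAs. There 12 of 20 members were called lower and 2 higher, against 21.9% and 16.5% of 15787 genes. All 19 called members had the same sign on all 3 arrays, which the rule for a call itself favours. Of them, 7 were at least 16-fold lower, a count that was not taken over all genes.

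**Figure D1:**
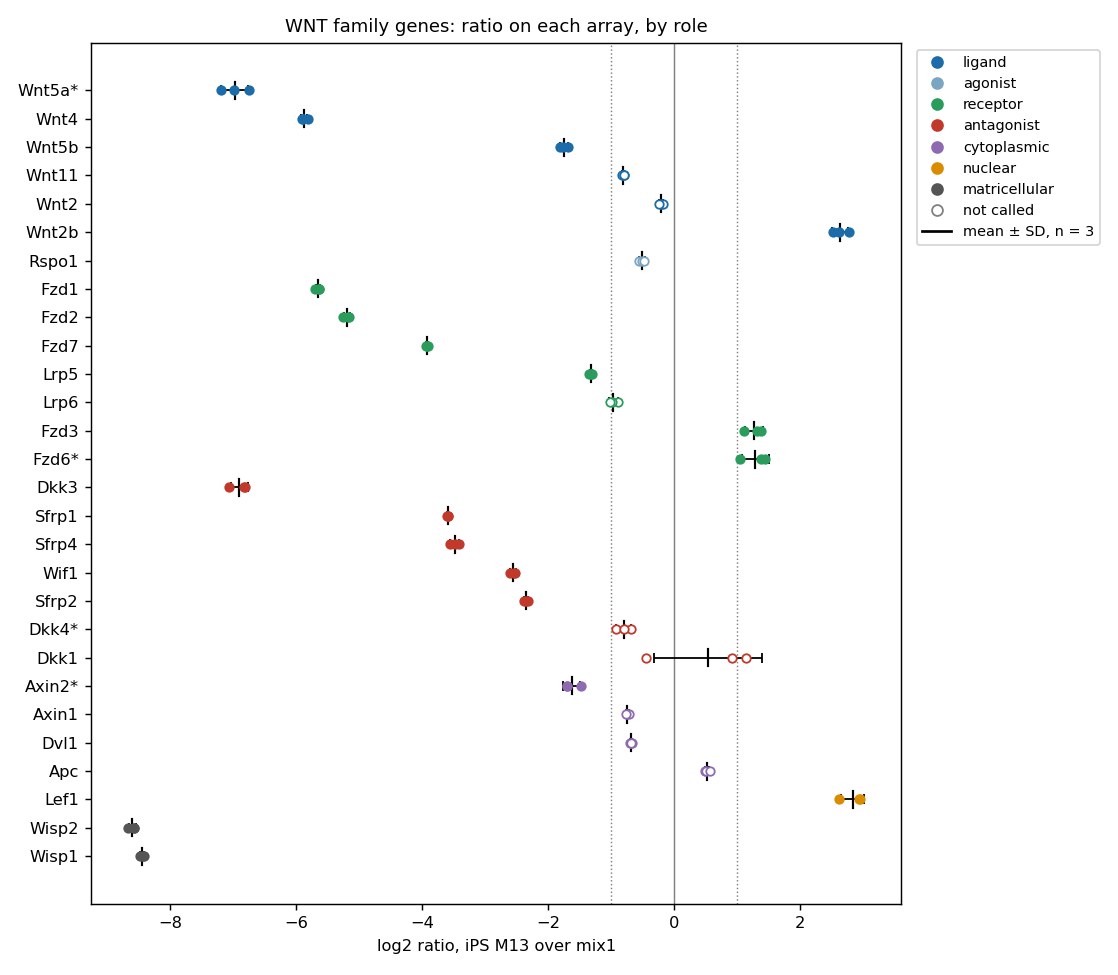
Log2 ratio of iPS M13 over mix1 (x axis) for the 28 measured members (rows, coloured by role). Points are the 3 arrays, the vertical tick and bar the mean ± SD, open points genes that were not called, and dotted lines 2-fold. An asterisk marks a gene dim in 1 RNA on every array, which has only a bound in the text, apart from Axin2. Wisp1 and Wisp2 lie farthest left, at -8.44 and -8.60, Lef1 farthest right, at 2.84, and Dkk1 is the plotted member whose arrays fall on both sides of 0.

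Ligands differed in kind. Wnt5a and Wnt4 were far lower in M13, Wnt5b was lower and Wnt2b was higher. In 12 of the 18 ligand genes neither RNA was measured on all arrays, against 42.7% of all genes. Wnt2b, a canonical ligand, had log2 ratios of 2.78, 2.53 and 2.62 on the 3 arrays, with normalized log2 signals of 10.99, 10.86 and 11.02 in M13 and 8.21, 8.34 and 8.40 in mix1. Wnt2b thus had a mean ratio of 2.64 ± 0.13 (SD, n = 3, limma adjusted p = 1.07e-05), or 6.24-fold. Its probe lies at chr2:200181393-200181452 in build rn3.

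Wnt5a, the main noncanonical ligand, gave log2 signals of 6.87, 6.41 and 7.11 in M13, which cleared the background on 0 of 3 arrays, and of 13.86, 13.60 and 13.86 in mix1. It was at least 106-fold lower in M13 after loess (limma adjusted p = 3.67e-06, lower on 3 of 3 arrays), and its log2 ratio was -6.20 under median centring. For such a bound, the dim signal of an array was replaced by the lowest signal called well above background there wherever it fell under it. The Wnt5a probe lies at chr16:3799335-3799394 in rn3. Wnt4, a ligand of kidney and gonad development that is also made by stroma, had M13 signals between 6.94 and 7.05 and mix1 signals of 12.84, 12.89 and 12.86. Its log2 ratio was -5.87 ± 0.05, and the M13 signal was above background on 1 of 3 arrays. The close paralog of Wnt5a, Wnt5b, was lower by less, at log2 ratios of -1.76, -1.67 and -1.81 (mean -1.75 ± 0.07).

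Wnt11, a noncanonical ligand, and Wnt2, a canonical one, were measured in both RNAs but did not reach 2-fold, at -0.81 ± 0.02 and -0.21 ± 0.03. Both signs depended on scaling and on probe GC content: with the trend of the ratios on GC content taken off, they were 0.18 and 0.45. The unmeasured ligands were Wnt1, Wnt3, Wnt3a, Wnt6, Wnt7a, Wnt7b, Wnt8a, Wnt8b, Wnt9a, Wnt9b, Wnt10a and Wnt10b. Among them were 8 ligands that form 4 neighbouring pairs by the rn3 positions of their probes. Wnt10b and Wnt1 lie 16.7 kb apart on chromosome 7, Wnt6 and Wnt10a 18.7 kb apart on chromosome 9, and Wnt3a with Wnt9a (55.7 kb) and Wnt9b with Wnt3 (75.8 kb) on chromosome 10. No probe of these 8 genes was well above background in M13 or in mix1 on any array. The same held for 17 of the 19 unmeasured members, these 8 among them, and the share over all genes was not taken. Wnt7a was well above background on 2 of 3 arrays in both RNAs with 1 of its 3 probes, at a log2 ratio of -0.14 ± 0.05. Such values set no upper limit for other probes of these genes.

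**Figure D2:**
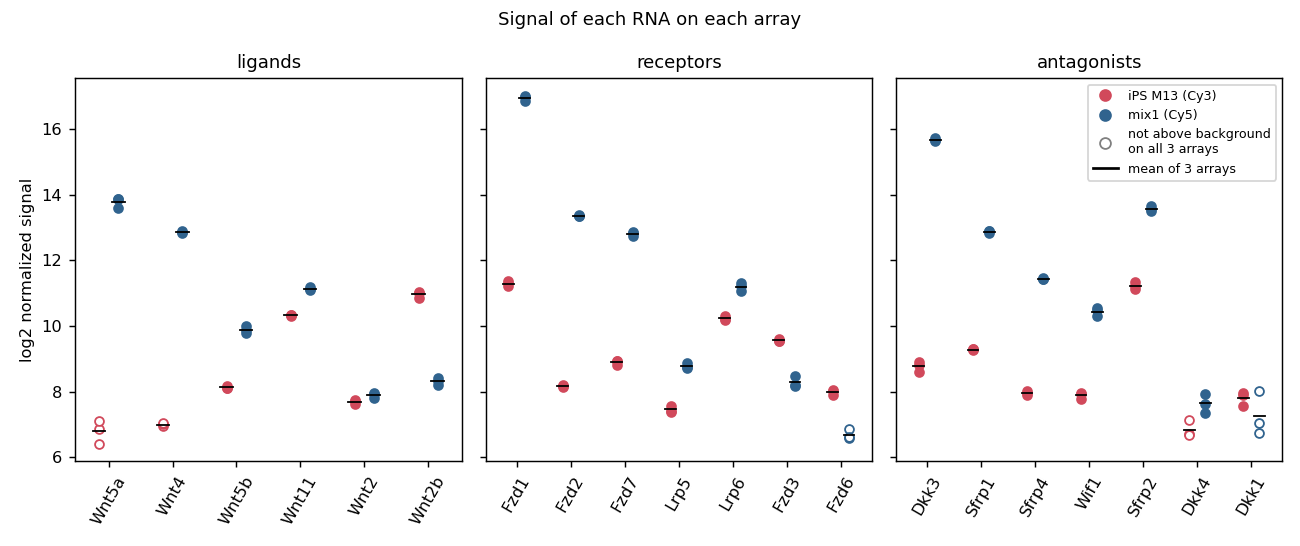
Normalized log2 signal (y axis) of iPS M13 in Cy3 (red, left of each pair) and mix1 in Cy5 (blue, right) for measured ligands, receptors and antagonists. Points are the 3 arrays, lines their means, and open points mark an RNA not well above background on all 3 arrays. Signals are comparable within a gene and not between genes, whose probes differ. Fzd1 averages 11.29 in M13 and 16.95 in mix1, while Wnt2b and Fzd3 stand higher in M13.

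R-spondins amplify WNT signals by sparing Frizzled receptors from degradation. Rspo1 was not called, at log2 ratios of -0.56, -0.50 and -0.47, and was 0.01 with the GC trend taken off. Probes that the array names differently but RefSeq assigns to the same families were not members. Among them Rspo2 was well above background in M13 on 3 of 3 arrays and in mix1 on 0, and Rspo3 was so in neither. Porcn, the enzyme that attaches the lipid to WNT proteins, had 2 such probes, at -2.33 ± 0.0038 and -0.81 ± 0.04, both lower in M13 but unequal.

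Receptors split within the Frizzled family. Fzd1, Fzd2 and Fzd7 were lower in M13, Fzd3 and Fzd6 higher, and Fzd4, Fzd5 and Fzd9 were not above background on any array. Fzd1 had log2 signals of 11.37, 11.20 and 11.29 in M13 and 17.01, 16.84 and 16.99 in mix1, with ratios of -5.64, -5.64 and -5.69. It was 50.4-fold lower (limma adjusted p = 6.22e-07), and M13 still read well above background on all 3 arrays. Fzd2, closest to Fzd1 and Fzd7 in sequence, was at -5.15, -5.17 and -5.25, or 36.5-fold lower. Fzd7, a receptor used by embryonic stem cells, was at -3.93, -3.90 and -3.92 with the probe that detected it, or 15.1-fold lower, while its second probe was dim in both RNAs. These 3 receptors kept their calls under every alternative tried, between -3.09 and -5.99.

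Fzd3, which guides axons and cell polarity, had log2 signals of 9.55, 9.61 and 9.53 in M13 and 8.16, 8.49 and 8.20 in mix1. Its ratios were 1.39, 1.12 and 1.32 (mean 1.28 ± 0.14, limma adjusted p = 1.10e-04). Fzd6, its close relative in polarity signalling, gave between 7.91 and 8.04 in M13 and 6.59, 6.86 and 6.61 in mix1, which was above background on no array. It was at least 1.82-fold higher in M13 after loess (limma adjusted p = 4.17e-04, higher on 3 of 3 arrays). The mix1 floor was 4.72 on the array of replicate 2, so the signal there was not replaced and the bound is not strict. Both probes are poor in GC, at 35.0% and 31.7%, and with the GC trend taken off their ratios were 0.88 and 0.78, under 2-fold.

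The coreceptors moved little by comparison. Lrp5 was lower, at -1.31, -1.34 and -1.31, or 2.50-fold, a call lost under median centring (-0.996) and with the GC trend taken off (-0.80). Lrp6 was not called, at -0.88, -0.99 and -1.01. It was called lower with the GC trend taken off (-1.23), and was at -0.14 under median centring and -0.20 with no within-array normalization. Its 2 probes had means of -0.96 and -0.89.

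The genes grouped by name as secreted antagonists mostly bind WNT ligands or block the coreceptors, which need not hold for each of them. Of the 7 measured, 5 were called lower in M13 and 0 higher, against 25.4% and 18.8% of all genes tested. Dkk3, a Dickkopf relative abundant in mesenchymal cells, had log2 signals of 8.90, 8.82 and 8.61 in M13 and 15.72, 15.63 and 15.67 in mix1. At a ratio of -6.90 ± 0.14 it was 119-fold lower (SD, n = 3, limma adjusted p = 1.58e-06). Of the Frizzled-related decoys, Sfrp1 was at -3.58, -3.59 and -3.60, Sfrp4 at -3.47, -3.41 and -3.56, and Sfrp2 at -2.37, -2.32 and -2.35. All 3 probes of Sfrp2 read lower, but the probe richest in GC gave -3.25 and the other 2 gave -2.35 and -2.34. Wif1, which captures WNT ligands directly, was at -2.54, -2.52 and -2.60. Frzb and Sfrp5 were not measured.

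The LRP-binding inhibitor Dkk1 was the 1 member among the 28 measured whose arrays disagreed in sign. Its M13 signals were alike, at 7.57, 7.97 and 7.90, and well above background on all 3 arrays. In mix1 it read 8.01 on the array of replicate 1, where it was above background, and 7.04 and 6.75 on the other arrays, where it was not. The ratios were -0.44, 0.93 and 1.15 (mean 0.55 ± 0.86, limma adjusted p = 0.226), and without replicate 1 the mean was 1.04 and passed the call (limma adjusted p = 2.87e-03). Dkk4, of the same family, was dim in M13 on every array and at least 1.52-fold lower than in mix1, with 1 of its 2 probes dim in both RNAs. It was not called after loess. With the scanner software's processed signals, the authors' value table, a normexp offset of 0 or the GC trend taken off, it was called lower.

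Inside the cell, 1 of the 4 measured genes, Axin2, was called lower in M13, near the 25.4% of all genes tested, and 3 were not called. Axin1 had log2 ratios of -0.75, -0.72 and -0.76 and the transducer Dvl1 of -0.69, -0.66 and -0.68, below 2-fold, and both turned sign under median centring (0.09 and 0.14). Apc, which helps to present beta-catenin for destruction, was at 0.50, 0.51 and 0.57 and passed 2-fold under median centring (1.28). Axin2, a direct target of beta-catenin that feeds back on the pathway, gave 7.15, 7.02 and 7.63 in M13, not above background on any array, and 8.84, 8.72 and 9.09 in mix1. It was 3.08-fold lower in M13 after loess (limma adjusted p = 4.75e-05, lower on 3 of 3 arrays). Its M13 signals lay above the floor, so this is the measured ratio and not a bound. The log2 ratio was -1.62 after loess, -1.32 under median centring and -1.33 with the GC trend taken off. Dvl3 was above background in both RNAs on 2 of 3 arrays only and was not tested.

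Of the nuclear factors, Lef1 was higher in M13 and Tcf7 was not measured in either RNA. Lef1, which brings beta-catenin to target genes, had log2 signals of 10.46, 10.52 and 10.44 in M13 and 7.52, 7.89 and 7.49 in mix1. The mix1 signal was above background on 1 of 3 arrays, and the ratio was 2.84 ± 0.18 (limma adjusted p = 2.36e-05), or 7.18-fold. With the scanner software's processed signals it was 4.29. No probe carried the names Tcf7l1, Tcf7l2 or Porcn.

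The matricellular proteins Wisp1 and Wisp2, now Ccn4 and Ccn5, are secreted WNT-inducible proteins of connective tissue and had the lowest ratios of all members. Wisp1 gave 7.92, 7.89 and 7.69 in M13 and 16.36, 16.30 and 16.16 in mix1, a ratio of -8.44 ± 0.03, or 347-fold lower (limma adjusted p = 6.22e-07). Wisp2 gave 7.82, 7.68 and 7.75 in M13 and 16.39, 16.25 and 16.42 in mix1, a ratio of -8.60 ± 0.06, or 388-fold lower. Both were above background in M13 on all 3 arrays, and the fibroblast markers that were bright in mix1 moved the same way, as given above.

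The other genes of the pathway were taken from 4 lists chosen by function, with earlier results of these data known, so their counts are a description. Of the listed genes, 105 of 118 had a probe and 86 were measured. Of these 86, 34 were called lower in M13 and 14 higher, against the 25.4% and 18.8% of all genes. Over genes well above background in both RNAs, 23 of 67 were called lower and 8 higher, against 21.9% and 16.5% of all such genes. The counts by list were not redone with that filter. The core list had 5 of 29 lower and 4 higher, with a median log2 ratio of -0.34. Beta-catenin itself, Ctnnb1, was at -0.35, -0.36 and -0.35 and its kinase Gsk3b at -0.58, -0.56 and -0.58, neither called. Both turned sign under median centring (0.48 and 0.26) and with no within-array normalization (0.42 and 0.20), and Ctnnb1 was at -0.02 with the processed signals and 0.01 with the GC trend taken off. The Dishevelled-binding inhibitor Cxxc4 was higher (3.32 ± 0.31, mix1 above background on 1 array) and its relative Cxxc5 lower (-4.71 ± 0.08). The corepressor Tle2 was lower (-3.91 ± 0.13), the kinase Nlk was higher (2.12 ± 0.11), and the beta-catenin cofactor Bcl9l was at least 3.57-fold lower.

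Among surface and secreted regulators, 7 of 14 measured genes were called lower and 2 higher, with a median of -0.99, against 25.4% lower and 18.8% higher over all genes. Wls, the carrier that WNT proteins need for secretion, was at -4.03, -4.06 and -4.06 in M13 over mix1. The collagen-associated protein Cthrc1 (-6.34 ± 0.09), the Dishevelled antagonist Nkd2 (-2.95 ± 0.03) and the glypican Gpc4 (-2.05 ± 0.03) were lower, and the Norrin coreceptor Tspan12 was higher (2.32 ± 0.08). In the polarity and calcium branch 9 of 22 were lower and 4 higher, with a median of -0.77, the higher count being near the 18.8% of all genes. Some of these lower genes passed the background filter through mix1 alone, which favours large ratios. Prickle1 (-5.22 ± 0.14), Nfatc4 (-4.11 ± 0.11) and Camk2g (-2.23 ± 0.01) were lower, Daam2 was at least 5.15-fold lower, and the Wnt5a receptor Ror2 was lower (-1.65 ± 0.08, M13 above background on 1 array).

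The targets of beta-catenin and TCF did not share a direction, with 13 of 21 measured genes lower and 4 higher and a median of -1.93, against 25.4% lower and 18.8% higher over all genes. Fn1 (-6.45 ± 0.08), Myc (-5.71 ± 0.03), Twist1 (-5.17 ± 0.04) and Msx1 (-5.11 ± 0.06) were lower. Fn1 is also a fibroblast marker in the list above.

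**Figure D3:**
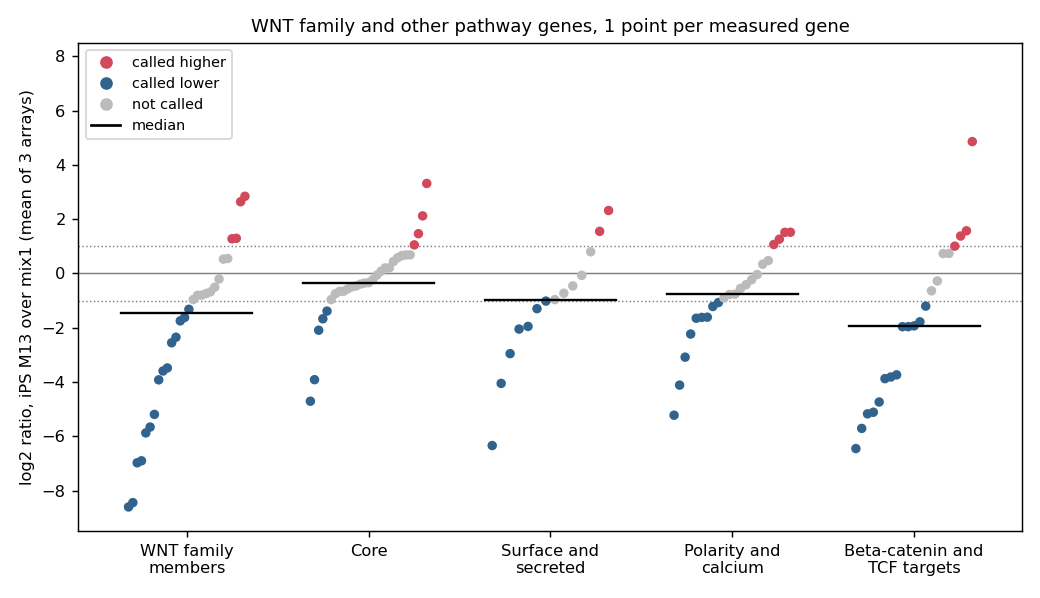
Log2 ratio, M13 over mix1, averaged over 3 arrays (y axis), for each measured WNT family member and each measured gene of 4 other pathway lists (x axis, sorted within a list). Points are genes, red called higher, blue called lower, grey not called, the black line is the median and dotted lines mark 2-fold. Medians run from -0.34 in the core list to -1.93 among targets, with the family members at -1.47.

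The scaling of the arrays bore on small ratios and on the balance of all calls more than on the members. Median centring in place of loess moved the median of all genes up by 0.60 on the log2 scale, no within-array normalization by 0.55 and the scanner software's processed signals by 0.31. The share of all calls that were higher in M13 was 42.5% after loess, and 67.2%, 65.1% and 56.6% in those settings. Among called members it was 21.1% after loess, and 26.3%, 25.0% and 20.0%. Axin1, Dvl1, Wnt11 and Wnt2 turned sign under median centring, and Axin1 and Dvl1 also with no within-array normalization. With the scanner software's processed signals these 4 stayed negative, at -0.39, -0.35, -0.45 and -0.11.

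**Figure D4:**
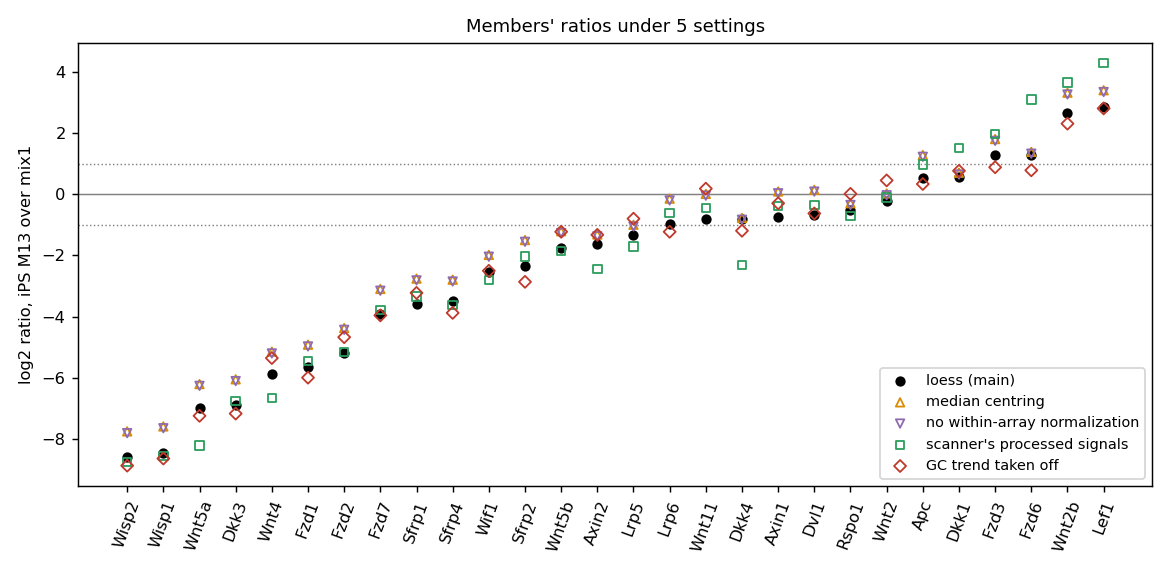
Log2 ratio of iPS M13 over mix1 (y axis) for the 28 measured members (x axis, sorted by the loess value) under 5 settings, 1 symbol each (loess, median centring, no within-array normalization, processed signals, and the GC trend taken off). Dotted lines mark 2-fold. From Wisp2 to Axin2 every symbol lies below -1, while Axin1, Dvl1, Wnt11 and Wnt2 cross 0 and Apc crosses 2-fold between scalings. Lrp5, Lrp6, Dkk4, Fzd3 and Fzd6 cross 2-fold with the GC trend taken off, Lrp5 also under median centring. Dkk4 and Dkk1 cross 2-fold with the processed signals.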

How the data were processed

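Spot brightness and local background were deposited as intensity per channel (Cy3 and Cy5) with no background subtracted, and processed intensities as background-detrended and dye-normalized, both from Agilent Feature Extraction 9.5.3.1, per the file headers. Deposited log10 ratios divide processed Cy5 by processed Cy3. A table of the authors' log2 values gives no direction. Its columns had a slope of -3.32 on the log10 ratios (correlations of -0.99987, -0.99996 and -0.99986), so its values were read as log2 Cy3 over Cy5, with medians per array of -0.0413, -0.0282 and -0.0286 and any centring unknown.

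Mean signals were corrected by normexp (offset 50) and scaled by loess within each array in limma 3.58.1 (R 4.3.3, with version 1.17.8 of data.table), with control spots at weight 0 and outlier spots left out (205, 263 and 192). Python 3.11.15, pandas 2.3.3, numpy 2.4.6 and matplotlib 3.10.9 were also used. Probes well above background in 1 channel on all 3 arrays were kept, namely 24178 of 41012, and a gene took the values of its brightest kept probe. Names were updated through RefSeq tables (21302 probes, all 62 of the members). Ratios (log2, M13 over mix1) were averaged over arrays and set against 0 by lmFit and eBayes, with p adjusted by Benjamini-Hochberg over 20343 genes. Of these, 19545 passed the adjusted p alone, so the 2-fold minimum decided most calls. The spread among adult cell samples is not covered, since mix1 is 1 RNA. Dyes were not swapped, so dye and group cannot be told apart. An exact sign-flip test (two-sided) on 3 arrays has a smallest p of 0.25 and was not used. Levels per channel were taken after loess and Aquantile scaling. All arrays lay on 1 slide. Across genes (not independent replicates), the arrays' ratios correlated at 0.997 to 0.998, with a median SD of 0.034. Precision is limited by there being 3 arrays.

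All members were named by rule, with values for each measured one. Of the other pathway genes, the 5 called genes with the largest ratio in each list were named, plus Ctnnb1 and Gsk3b, except 1 gene that is not reported here. Members and lists were chosen with earlier results of these data known. The fit was tested on simulated data. Alternatives covered signal, scaling, filters, probe choice, flags, fold minimum and single arrays, and the GC correction was chosen after seeing the data.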

Additional observations from a re-analysis of the deposited data

How the results depend on the processing

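Of the 19 called members, 16 kept their direction and call under each of the 14 alternatives that measured them, and 0 turned sign. The exceptions were Lrp5, Fzd3 and Fzd6, whose values are given above. Not all alternatives could change a ratio. The filter settings, the outlier spots and the fold minimum left the ratios of called members as they were. The mean over probes changed only genes with more than 1 kept probe, and the authors' value table nearly repeated the processed signals. The count of members called higher was 4, and 2 both with the filter for both RNAs and with the GC trend taken off. Leaving out 1 array gave 4 to 5 members higher and 15 lower, and the extra call was Dkk1 without replicate 1. Over all genes, 3819 were called higher and 5170 lower. Higher calls numbered 6321 with the processed signals, 6319 with the authors' value table, 7409 under median centring, 7005 with no within-array normalization and 9602 with no fold minimum, which called 9943 lower. Of the other pathway genes 14 were higher and 34 lower. Higher calls numbered 23 under median centring, 22 with no within-array normalization, 8 with the filter for both RNAs, which tests fewer genes, and 27 with no fold minimum, which called 58 lower. Apart from the filter and the fold minimum, whose construction sets the counts, the cause was not tested. No paired analysis was possible because all 3 samples belong to 1 group, beyond the pairing of M13 and mix1 on each array that the ratio itself holds. Signal over background limits the ratios of Wnt5a, Fzd6 and Dkk4, which are given as bounds, and that of Axin2, measured with M13 dim on every array. It also limits those of Wnt4, Lef1 and Dkk1, whose dimmer RNA was well above background on 1 array. Groups of 3 were not tested for outlying samples, so the lack of results taken to a closer look says nothing about such samples.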

Other observations

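Probes of 1 gene did not always read alike. Of the 12 members with several probes, 4 had more than 1 kept probe. Wnt11 had a second probe at 0.17 ± 0.05, above background in M13 on 2 arrays and in mix1 on 1, against -0.81 ± 0.02 for the probe that stood for it. The 2 probes differ in GC content, at 48.3% and 68.3%. For Wnt2 the dim second probe was at 0.20 ± 0.05 and for Wnt5b at -0.39 ± 0.16, closer to 0 than -1.75 ± 0.07. Sfrp4 had 2 kept probes, at -3.48 ± 0.07 and -2.77 ± 0.06, and another that was dim in both RNAs, at 0.06 ± 0.08.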
